A study of Homo sapiens with 414 samples.

Results

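Permethrin and bioallethrin are the pyrethroid insecticides of a neurotoxicity screen, and their 22 libraries, 11 of each compound, were taken by their compound label from a series of 266 libraries of 29 compounds classed by the submitters as toxic and 148 libraries of 16 compounds classed as non-toxic. RNA was sequenced from H1-NPC, a neural progenitor culture made from H1, an established human embryonic stem cell line. Permethrin at 2.5 µM and bioallethrin at 10 nM, both classed as toxic, were sampled after 1, 2, 3, 4, 6, 8, 10, 15, 21, 27 and 39 days of exposure. They were compared with the 148 libraries of the 16 non-toxic compounds, 7 to 16 libraries on each of the same days. The non-toxic compounds are acetaminophen, aspirin, ibuprofen, naproxen sodium, amoxicillin, glyphosate, glucosamine and saccharin. The list goes on with sorbitol, sucrose, fructose, glycerol, PVP, PEG, Ficoll and DMSO. Their libraries ran from 5 for aspirin to 11 for DMSO and some others, so the mix of compounds differed between days. DMSO at 0.10% is 1 of these 16 compounds, and the labels do not say whether it carried either pyrethroid. All groups share the cell line and the exposure days. There was 1 library per compound and day, so libraries of different days stood in for replicates and day was a factor in the fits. Nothing in the labels says which libraries came from separate cultures, so the p-values measure the spread between these libraries, which may be technical.

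Pyrethroids are synthetic relatives of the natural insecticides of chrysanthemum flowers. They bind voltage-gated sodium channels, the membrane proteins that start the action potential, and hold them open for longer, so that nerve cells fire repeatedly. Both compounds are type I pyrethroids, which lack the alpha-cyano group of the type II compounds. Permethrin is a phenoxybenzyl ester of a dichlorovinyl cyclopropane acid, and bioallethrin is the allethrolone ester of chrysanthemic acid. In mammals the esters are cleaved by carboxylesterases and oxidised by cytochrome P450 enzymes. The 2 compounds were dosed 250-fold apart on a molar basis, so their values are set side by side below and no test was made between them. Their comparisons share the non-toxic libraries.

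The libraries carried the RNA of a neural culture, with mesenchymal and matrix RNA beside it. Summed over 12 neural progenitor markers, days 1 to 6 gave 4578 to 5940 TPM (a transcript's share of a library, corrected for its length) under permethrin, 4144 to 5842 TPM under bioallethrin and 4075 to 6562 TPM in the non-toxic libraries. On days 8 to 39 the sum of 13 pan-neuronal genes ran from 8246 to 12262 TPM under permethrin and 7881 to 12069 TPM under bioallethrin. In the non-toxic libraries it ran from 7530 to 12714 TPM. The sum of 12 mesenchymal and matrix markers ran from 701 to 10027, 910 to 11066 and 242 to 9887 TPM in the same order. The 8 microglia and blood markers, taken as a sum, stayed at or below 20.2 TPM in the pyrethroid libraries, with AIF1 listed at 0 in all of them, and at or below 15.9 TPM in the non-toxic libraries. Every pyrethroid library correlated with its closest other library of the series at r of 0.991 to 0.996, and no library was a copy of another. The slope of each library's deviation from its day against transcript length, an index of how far long transcripts were under-represented, ran between -0.166 on day 15 and 0.084 on day 8 under permethrin, and between -0.115 on day 21 and 0.030 on day 8 under bioallethrin. The non-toxic libraries lay between -0.438 and 0.075 on day 8, -0.005 and 0.004 on day 15 and -0.015 and 0.014 on day 21, and the -0.438 belonged to 1 ibuprofen library that stood apart from the rest with a closest r of 0.948. On days 1, 2, 3, 4 and 6 permethrin had slopes of -0.021, -0.031, -0.026, -0.041 and 0.041. Bioallethrin had -0.019, 0.016, -0.020, -0.036 and 0.009. The non-toxic libraries of these days lay between -0.012 and 0.011, -0.011 and 0.010, -0.024 and 0.010, -0.011 and 0.010, and -0.012 and 0.017. Every permethrin library of days 1 to 6, and bioallethrin on days 1, 2 and 4, fell outside the range of its day. The titles of libraries classed as toxic and as non-toxic carry different codes, so any difference in handling between the classes cannot be told apart from a pyrethroid effect. The part of transcript length in the results below was not tested beyond the fits with the slope as a covariate that are given with them. In these bulk libraries, fewer cells of a type and less RNA per cell cannot be told apart.

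Many genes differed by small amounts between the pyrethroid pair and the non-toxic libraries. Most called ones were lower, though over all days this turned with the length slope as a covariate. Levels were analysed as log2(TPM + 1), and a gene was called when its adjusted p (limma, Benjamini-Hochberg over all 16318 tested genes) was under 0.05. Compound was a random block, with an estimated correlation of 0.013 over all days and 0.025 on days 1 to 6. Libraries of 1 compound therefore counted as nearly independent in these fits. Over all days 825 genes were called, 195 higher and 630 lower, which is 5.06% of the tested genes (1.19% higher, 3.86% lower). The days 1 to 6 gave 1855 calls, 332 higher and 1523 lower, or 11.4% (2.03% higher, 9.33% lower). The median size of a called difference was 0.17 on the log2 scale over all days and 0.11 on days 1 to 6, and 10 of the 825 genes were past 0.50. The difference of the median tested gene was -0.029 over all days and -0.021 on days 1 to 6. With each library centred on its own median, the split over all days was 603 higher and 790 lower, and with the length slope as a covariate it turned to 1388 higher and 464 lower. On days 1 to 6 the split was 621 higher and 775 lower after centring and 237 higher and 539 lower with the covariate. The count over all days was 156 without days 15 and 21 and 4412 without ibuprofen. Leaving out 1 pyrethroid library moved it by over 1.5 times in 5 cases: to 396 and 485 without permethrin of days 15 and 21, 363 without bioallethrin of day 21, 1449 without permethrin of day 8 and 1374 without bioallethrin of day 39. The days 1 to 6 count was 1210 without permethrin of day 3 and 2819 without permethrin of day 6. Of the 825 genes 78 kept the call in every other setting that tested them and with each pyrethroid library left out. Of the 1855 genes of days 1 to 6, 344 did. The fits against DMSO alone and without the day factor are not among these settings.

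Single non-toxic compounds give a scale for the counts of each pyrethroid apart, and not for the pair, since no pair of non-toxic compounds was fitted. The ibuprofen libraries stayed in these fits, and the pair's count over all days rose from 825 to 4412 without them. Fitted 1 at a time against the other non-toxic libraries over all days, 10 of the 16 called no gene and the median was 0. Ibuprofen called 5363 genes and the next, glyphosate, called 42. Within days 1 to 6 the median was 1 gene, DMSO called 201 and naproxen sodium 32. Permethrin by itself called 203 genes over all days (56 higher, 147 lower; 1.24% of those tested, 0.343% higher and 0.901% lower) and 982 on days 1 to 6 (94 higher, 888 lower; 6.02%, with 0.576% higher and 5.44% lower). After centring the permethrin splits were 240 higher and 284 lower over all days and 267 higher and 354 lower on days 1 to 6, and with the length slope as a covariate they were 612 higher and 193 lower and 46 higher and 153 lower. Bioallethrin by itself called 38 genes over all days (20 higher, 18 lower; 0.233%, with 0.123% higher and 0.11% lower) and 809 on days 1 to 6 (183 higher, 626 lower; 4.96%, with 1.12% higher and 3.84% lower). Its splits were 34 higher and 54 lower over all days and 249 higher and 408 lower on days 1 to 6 after centring, and 541 higher and 128 lower and 300 higher and 542 lower with the covariate. Against the DMSO libraries as the only non-toxic ones, limma called 0 genes for the pair in either window, with 3316 genes over all days and 1357 on days 1 to 6 at an unadjusted p under 0.05.

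The sodium channels on which pyrethroids act were read as RNA of their pore-forming subunits, of which 7 of 9 were expressed highly enough to test. SCN3A, the subunit most abundant in embryonic brain, was lower on days 1 to 6, and none of the 7 was called over all days. Of all tested genes 9.33% were called lower for the pair on days 1 to 6 and 3.86% over all days. Under permethrin SCN3A stood at 20.3, 21.9, 26.8, 32.7 and 48.6 TPM on days 1, 2, 3, 4 and 6. Under bioallethrin it stood at 19.8, 27.2, 26.6, 32.1 and 50.1 TPM on the same days, and the non-toxic means were 23.9, 25.5, 32.8, 38.0 and 49.2 TPM. Of the 10 pyrethroid libraries of these days, 7 lay below every non-toxic library of their day, beside 5.49 to 20.4% of all tested genes in each library. The 2 of day 6 and bioallethrin on day 2 did not lie below, and these had the positive length slopes of this window. The log2 difference for the pair was -0.16 ± 0.03 (SE; limma adjusted p = 2.87e-05), with -0.19 ± 0.04 for permethrin (adjusted p = 0.000222) and -0.13 ± 0.04 for bioallethrin (adjusted p = 0.0266).

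SCN8A, the subunit of the axon initial segment and nodes in mature neurons, was called for permethrin on days 1 to 6 at -0.11 ± 0.03 (limma adjusted p = 0.00706) and stood at 0.00 ± 0.03 for bioallethrin in that window (adjusted p = 0.996). Permethrin gave 35.3, 36.2, 39.2, 37.5 and 29.9 TPM, bioallethrin gave 35.5, 47.4, 40.2, 39.4 and 30.8 TPM, and the non-toxic means were 38.4, 40.7, 43.0, 39.3 and 31.1 TPM. All 5 permethrin libraries sat under the non-toxic mean of their day, while bioallethrin on day 2 was above every non-toxic library. Over all days SCN8A missed the threshold for the pair at -0.16 ± 0.05 (adjusted p = 0.0503), as did SCN3A at -0.18 ± 0.07 (adjusted p = 0.122) and SCN2A, of excitatory neurons, at -0.15 ± 0.06 (adjusted p = 0.107). SCN1A, of inhibitory neurons, was at -0.12 ± 0.06 (adjusted p = 0.226), and SCN9A and SCN11A of sensory neurons were at -0.11 ± 0.05 and 0.02 ± 0.05. SCN11A stayed at or under 1.30 TPM in every pyrethroid library, and SCN4A of muscle and SCN10A of sensory neurons were too low to test.

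Days 15 and 21 set the late pattern of these subunits. On day 15 SCN3A had 20.1 TPM under permethrin and 42.1 TPM under bioallethrin, against 48.9 to 54.8 TPM in the 7 non-toxic libraries. On day 21 it had 40.6 TPM under permethrin and 33.7 TPM under bioallethrin, against 53.3 to 62.5 TPM in 11 non-toxic libraries. These 4 libraries lay below all non-toxic ones of their day, and on day 27 permethrin at 67.5 TPM and bioallethrin at 58.9 TPM lay inside the non-toxic range of 49.1 to 73.6 TPM. On day 15, 45.1% of all tested genes lay below every non-toxic library under permethrin and 22.8% under bioallethrin. On day 21 these shares were 34.6% and 40.3%. The length slopes of the permethrin library of day 15 (-0.166) and the bioallethrin library of day 21 (-0.115) were the lowest of each compound. The median over the 7 tested subunits was -0.12 over all days against -0.029 for all tested genes. With the length slope as a covariate it was -0.029 against 0.011 for all tested genes. Without days 15 and 21 it was -0.031 against -0.010.

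**Figure D1:**
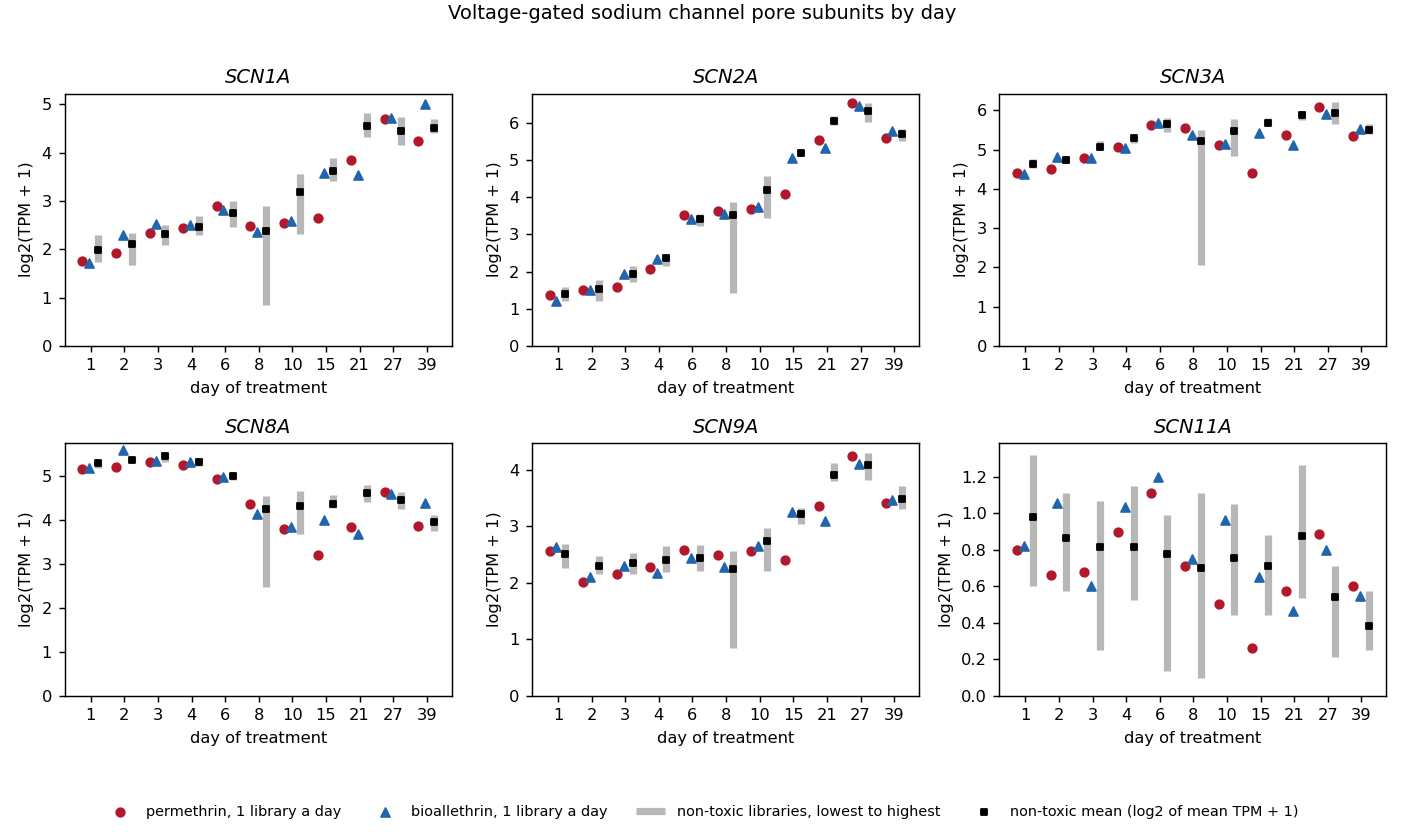
Levels of 6 sodium channel pore subunits as log2(TPM + 1) on each day of exposure: red circles are permethrin and blue triangles bioallethrin (1 library each), grey bars run from the lowest to the highest non-toxic library and black squares mark the non-toxic mean. SCN3A sits under the grey bars on days 1, 3 and 4 for both compounds, and on day 15 permethrin lies under them for every subunit shown, and on day 21 both compounds do for every one but SCN11A, where bioallethrin does. Of all tested genes 45.1% lay below every non-toxic library for permethrin on day 15. On day 21 the share was 34.6% for permethrin and 40.3% for bioallethrin.

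Among genes that work beside the sodium channels, and beside 3.86% of all tested genes called lower over all days and 9.33% on days 1 to 6, 2 of 9 beta subunits and partners fell over all days and again on days 1 to 6: SCN4B, a beta subunit that shapes resurgent current, at -0.16 ± 0.05 and -0.17 ± 0.04, and ANK3, the ankyrin that anchors sodium channels at the axon initial segment, at -0.19 ± 0.06 and -0.11 ± 0.03. Over all days SCN4B ranged from 8.46 to 91.0 TPM with a median of 17.7 TPM in the pyrethroid libraries and from 4.41 to 111 TPM with a median of 15.98 TPM in the non-toxic ones, so the groups overlapped widely and the difference appears only within days. Among the calcium channel pore subunits 3 of 7 were called lower and none higher over all days, against the same 3.86%, CACNA1E, CACNA1H and CACNA1I at -0.17, -0.16 and -0.14. CACNA1H, a T-type channel, was below every same-day non-toxic library in 13 of 22 pyrethroid libraries, beside a mean over all genes of 3.63 of 22.

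Voltage-gated potassium channels gave 5 calls of 11, all lower over all days, beside 3.86% of all tested genes called lower. KCNA2, a delayed rectifier of axons, ranged from 3.93 to 43.7 TPM with a median of 12.7 TPM in the pyrethroid libraries, against 7.15 to 52.1 TPM with a median of 17.96 TPM in the non-toxic ones. Its log2 difference was -0.31 ± 0.07 (limma adjusted p = 0.00102). It lay below all same-day non-toxic libraries in 9 of 22, beside a mean over all genes of 3.63 of 22. KCND3, of a transient potassium current, was at -0.33, and KCNQ3, a subunit of the channels that carry the M current, which restrains firing, was at -0.21. The median over the 11 channels was -0.11. Without days 15 and 21 none of these calcium and potassium channels was called, beside 88 of all 16318 tested genes called lower. The medians were then -0.069 and -0.086, against -0.010 for all tested genes. With the length slope as a covariate 1 calcium channel (CACNA1I) and 4 potassium channels were called, beside 464 of all tested genes called lower.

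Of the called genes at a mean of 1 TPM or more that moved the same way in at least 80% of the libraries, RGS5 had the largest fall over all days; it is a regulator of G protein signalling that is abundant in pericytes. It ranged from 1.16 to 5.95 TPM with a median of 2.91 TPM in the pyrethroid libraries, against 0.94 to 17.6 TPM with a median of 3.77 TPM in the non-toxic ones. Its log2 difference was -0.54 ± 0.08 (limma adjusted p = 4.29e-07), lower in 18 of 22 libraries. The gap opened late: on days 15, 21, 27 and 39 permethrin gave 1.16, 2.94, 5.75 and 3.22 TPM and bioallethrin 1.16, 2.93, 5.95 and 2.49 TPM, against non-toxic means of 5.10, 8.21, 12.4 and 7.35 TPM. All 8 of these libraries were below the lowest non-toxic library of their day, and in all 11 of the 22 libraries were. Over all genes the mean was 3.63 of 22. On these 4 days the share of all tested genes below every non-toxic library was 45.1, 34.6, 8.61 and 22.5% for permethrin. For bioallethrin it was 22.8, 40.3, 8.51 and 14.6%.

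ICAM1, the adhesion molecule that leukocytes bind on activated endothelium and glia, was also lower mainly late. On days 15, 21, 27 and 39 permethrin gave 1.04, 1.49, 3.85 and 4.83 TPM and bioallethrin 0.76, 1.84, 4.71 and 8.05 TPM, against non-toxic means of 2.72, 5.88, 10.0 and 10.6 TPM. Among these 8 libraries, whose shares of all genes below the range are given with RGS5, only bioallethrin on day 39 was within the non-toxic range. The difference over all days was -0.45 ± 0.08 (limma adjusted p = 2.58e-05). RGS5 and ICAM1 kept their calls under 10 other settings, among them the fit without days 15 and 21, and with each pyrethroid library left out in turn. Both were too low to be tested under the filter at a mean of 10 TPM, and the fits against DMSO alone and without the day factor are not among the 10.

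Under the same limits of level and direction, the other 8 of the 10 largest falls over all days lay between -0.54 and -0.39. IGSF9B, an adhesion molecule of inhibitory synapses, was at -0.54 ± 0.10. It was below all same-day non-toxic libraries in 11 of 22, beside a mean over all genes of 3.63 of 22. SYN3, a synaptic vesicle phosphoprotein, was at -0.47 ± 0.11, and PRPH, the peripherin filament of peripheral and some central neurons, at -0.39 ± 0.12. P2RX3, an ATP-gated channel of sensory neurons, was at -0.41 ± 0.11, with 0 to 43.7 TPM and a median of 14.2 TPM in the pyrethroid libraries against 0.25 to 51.3 TPM and a median of 20.4 TPM in the non-toxic ones. IL32, a cytokine, STC2, a secreted glycoprotein of stressed cells, and TINAGL1, a matrix protein, were at -0.45, -0.42 and -0.40. CHRFAM7A, at -0.42, is a partial copy of the nicotinic receptor gene CHRNA7, so its reads are uncertain.

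Of the called genes at a mean of 1 TPM or more that moved the same way in at least 80% of the libraries, CDR1 had the largest rise over all days, 0.59 ± 0.12 (limma adjusted p = 0.000515), higher in 20 of 22 libraries. It ranged from 3.22 to 139 TPM with a median of 15.8 TPM in the pyrethroid libraries, against 1.02 to 71.3 TPM with a median of 9.83 TPM in the non-toxic ones. On days 10, 15 and 21 permethrin gave 36.7, 57.7 and 44.4 TPM and bioallethrin 86.6, 139 and 79.9 TPM, against non-toxic means of 26.7, 17.6 and 26.1 TPM. The library kit does not mark strand, so CDR1 reads cannot be told apart from those of its antisense partner. CDR1 rose in each compound fitted apart and lost its call for the pair without days 15 and 21.

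The remaining rises were smaller but more even. IRGQ, a relative of the immunity-related GTPases, was at 0.16 ± 0.03 (limma adjusted p = 1.67e-06) and higher in 20 of 22 libraries. It ranged from 19.5 to 59.6 TPM with a median of 36.6 TPM in the pyrethroid libraries, against 15.7 to 52.8 TPM with a median of 30.1 TPM in the non-toxic ones, and 7 libraries were above every non-toxic library of their day, beside a mean over all genes of 2.33 of 22. TCEAL5, of the family named for its likeness to transcription elongation factor A, was at 0.19 ± 0.05, and PUS3, a tRNA pseudouridine synthase, at 0.17 ± 0.05. ARHGAP15, a Rac GTPase-activating protein, was at 0.29 ± 0.07 with a median of 1.43 TPM in the pyrethroid libraries and 0.80 TPM in the non-toxic ones. PCBP3, C11orf1, FAM158A, ITGAE and RNFT2 completed the 10 at 0.14 to 0.20. Of these 10 genes IRGQ, TCEAL5 and PUS3 kept the call under 11 other settings, these 10 and the filter at a mean of 10 TPM, and with each library left out.

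**Figure D2:**
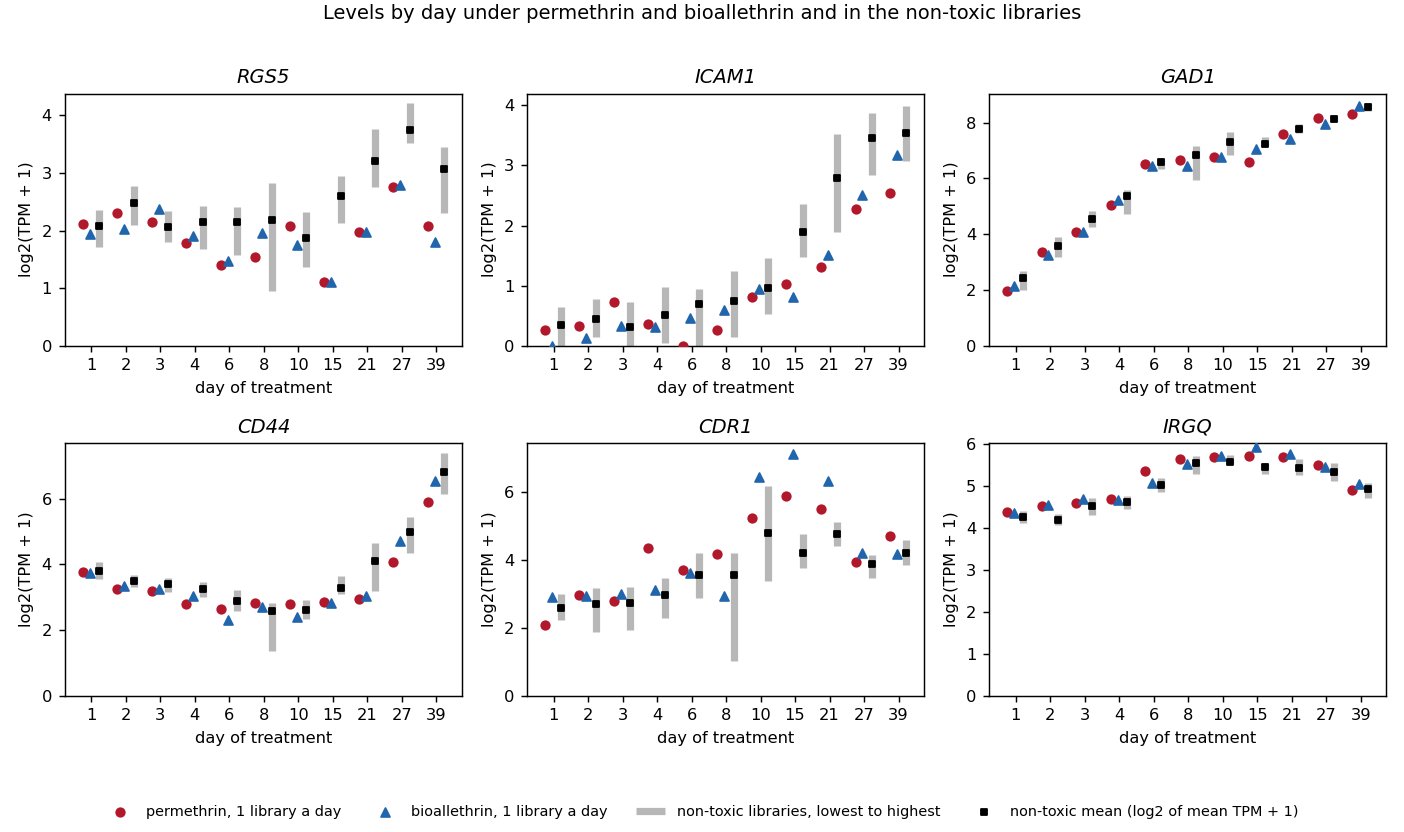
Levels of RGS5, ICAM1, GAD1, CD44, CDR1 and IRGQ as log2(TPM + 1) on each day of exposure, with permethrin as red circles, bioallethrin as blue triangles (1 library each), and the non-toxic libraries as grey bars from lowest to highest with the mean as a black square. RGS5 lies under the grey bars for both compounds from day 15 to day 39, and CDR1 lies over them on days 15 and 21.

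**Figure D3:**
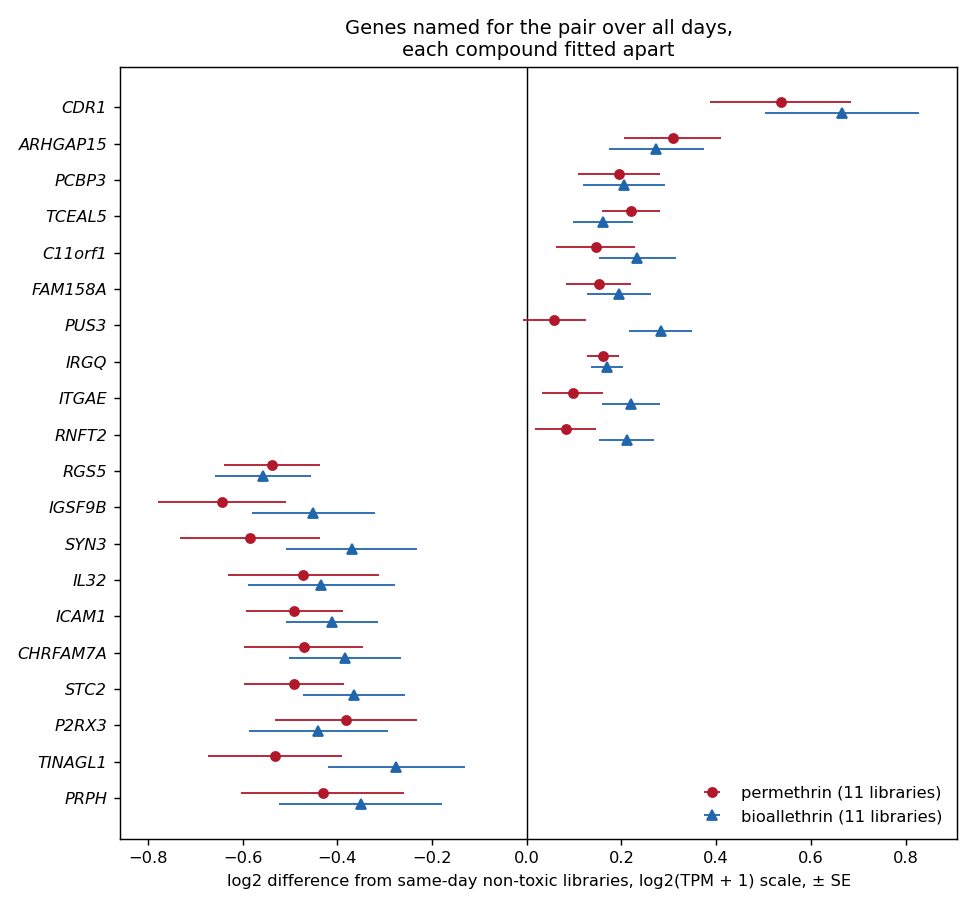
Log2 difference from the same-day non-toxic libraries, with its SE, for the 10 genes with the largest rises and the 10 with the largest falls of the pair, fitted for permethrin (red circles) and bioallethrin (blue triangles) apart, 11 libraries each. RGS5 stands at -0.54 for permethrin and -0.56 for bioallethrin, and PUS3 at 0.06 and 0.28; the genes were chosen on the pair, so the shared side of 0 is fixed by the choice.

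Most cell type markers and neurotransmitter genes called over all days were lower, and SYP of the synaptic genes was higher. Of 10 astrocyte markers 5 fell and none rose, beside 3.86% of all tested genes called lower, with a median of -0.15 against -0.029 for all tested genes. AQP4, the water channel of astrocyte endfeet, had 21.6, 75.0 and 180 TPM under permethrin and 19.5, 79.6 and 172 TPM under bioallethrin on days 21, 27 and 39, against non-toxic means of 30.4, 119 and 284 TPM; its difference over all days was -0.27 ± 0.06 (limma adjusted p = 0.00122). On days 27 and 39 all 4 pyrethroid libraries were under the non-toxic range, as were 8.51 to 22.5% of all tested genes in each. CD44, a hyaluronan receptor of astrocyte precursors, was at -0.32 ± 0.06 (adjusted p = 0.000504), S100B at -0.16, ALDH1L1 at -0.20 and SPARCL1 at -0.25. GFAP, SLC1A2, SLC1A3, GJA1 and AGT did not pass. The summed level of the 10 markers on days 8 to 39 ran from 317 to 3870 TPM under permethrin (median 1102), from 326 to 4226 TPM under bioallethrin (median 1118) and from 89.0 to 5940 TPM in the non-toxic libraries (median 2059), which hold the days in other proportions. Without days 15 and 21 AQP4 and CD44 were the markers still called, beside 88 of all 16318 tested genes called lower.

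GAD1, which makes the inhibitory transmitter GABA, was lower at -0.27 ± 0.05 (limma adjusted p = 1.74e-05) and kept its call in the same 11 settings. It stood below the lowest same-day non-toxic library in 11 of 22 pyrethroid libraries, beside a mean over all genes of 3.63 of 22. On days 10, 15 and 21 permethrin gave 107, 96.1 and 191 TPM and bioallethrin 107, 131 and 168 TPM, against non-toxic means of 158, 151 and 215 TPM. With it 3 more of 13 GABA genes fell, beside 3.86% of all tested genes, among them the receptor subunits GABRA2 (-0.25) and GABRB1 (-0.28). The median of the 13 was -0.077. With the length slope as a covariate it was 0.001 against 0.011 for all tested genes, and GAD1 and GABRB1 were called. That fit called 464 of all 16318 tested genes lower. Of 12 glutamate genes 2 fell, the NMDA receptor subunits GRIN2A at -0.31 ± 0.06 (adjusted p = 0.000284) and GRIN2B at -0.28 ± 0.08. GRIN2A was below all non-toxic libraries of its day in 11 of 22, beside the same mean of 3.63.

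Stress and growth lists are read against the 3.86% of all tested genes called lower and 1.19% called higher over all days. Of 19 p53 targets 3 fell and none rose: CDKN1A, the cell cycle inhibitor p21, at -0.22 ± 0.05 (limma adjusted p = 0.000934), the death receptor FAS at -0.27 ± 0.06 and the antiproliferative gene BTG2 at -0.17 ± 0.04. CDKN1A ranged from 10.9 to 257 TPM with a median of 22.8 TPM in the pyrethroid libraries, against 12.1 to 486 TPM with a median of 23.5 TPM in the non-toxic ones. Of 14 hypoxia and glycolysis genes 4 fell, VEGFA (-0.35), PFKFB3 (-0.17), SLC2A1 (-0.16) and BNIP3 (-0.16), and all 14 had a negative difference with a median of -0.16. VEGFA under bioallethrin gave 18.8 and 567 TPM on days 21 and 39, against non-toxic means of 61.4 and 283 TPM. These 2 libraries therefore lay on opposite sides of the non-toxic range. Without days 15 and 21 none of the 14 was called, beside 88 of all 16318 tested genes called lower. Of 13 genes of the ATF4 and amino acid response ATF4 itself rose by 0.06 ± 0.02 and STC2 fell. Among 12 targets of the oxidant sensor NRF2, thioredoxin (TXN) rose by 0.07 and the cystine transporter SLC7A11 was at -0.16.

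The lists of other cell types over all days are read against the same 3.86% and 1.19%. KRT7 of 6 epithelial markers (-0.58), CDH5 of 5 tested endothelial markers (-0.17), and 2 of 8 tested oligodendrocyte lineage markers, CSPG4 (-0.25) among them, fell. Of 12 neural progenitor markers NOTCH1 and PROM1 fell, of 13 neurogenic factors 1 fell, and none of 13 pan-neuronal genes was called. Of 12 synaptic genes SYP rose. HOXB8 and HOXB9 of 17 HOX genes rose at levels no higher than 0.87 TPM. Of 14 mitotic genes BIRC5 rose, of 12 ER chaperones HSPA5 fell, and of 15 sterol genes FDPS rose. No gene was called among 14 S phase genes, 8 tested dopamine neuron genes, 12 mesenchymal markers, 4 tested choroid plexus markers, 6 pluripotency markers, 8 interferon genes, 6 tested estrogen response genes, 7 metallothionein and zinc genes, 10 heat shock chaperones or 2 tested microglia and blood markers.

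Genes that answer to firing and to foreign compounds were described because pyrethroids excite neurons and are broken down by esterases and P450 enzymes. None of 16 activity-dependent early genes, such as FOS and ARC, was called over all days, and their median was 0.02. On days 1 to 6 the nuclear receptor NR4A2 of the same list was called lower at -0.20 ± 0.06 (limma adjusted p = 0.00943), and the list's median was 0.00. No tested target of the receptors PXR and CAR (6), none of 9 tested carboxylesterase and alcohol or aldehyde oxidation genes and none of 7 AHR targets was called in either window for the pair. The summed level of the 11 PXR and CAR targets reached no more than 10.5 TPM in any pyrethroid library, against 15.4 TPM in the non-toxic ones, so little of these genes could be measured in this culture.

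Progenitor and neuronal genes were among the calls of days 1 to 6. NOTCH1, a receptor through which neighbouring cells hold progenitors back from becoming neurons, fell by 0.18 ± 0.03 (limma adjusted p = 4.07e-06) and lay below every same-day non-toxic library in 9 of 10 pyrethroid libraries. In each of these 10 libraries 5.49 to 20.4% of all tested genes lay below that range. PAX6, a progenitor transcription factor, had 5.97, 7.60, 8.55, 12.3 and 15.0 TPM under permethrin and 5.22, 9.25, 10.4, 12.7 and 11.8 TPM under bioallethrin on days 1, 2, 3, 4 and 6, against non-toxic means of 7.20, 9.74, 12.3, 14.9 and 14.4 TPM. Permethrin on day 6 was above the non-toxic mean and the other 9 libraries below it, and the PAX6 difference for the pair was -0.24 ± 0.04. VIM, the progenitor filament vimentin, was at -0.09 ± 0.02, and no other of the 12 progenitor markers was called, beside 9.33% of all tested genes called lower.

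Of 13 neurogenic factors 4 fell on days 1 to 6 and none rose, beside 9.33% of all tested genes called lower, with a median of -0.089 against -0.021 for all tested genes. DLL1, a Notch ligand of newborn neurons, had 195, 243, 246, 311 and 253 TPM under permethrin and 196, 245, 271, 303 and 218 TPM under bioallethrin, against non-toxic means of 224, 266, 306, 315 and 242 TPM. On days 1, 2 and 3 both compounds were below the whole non-toxic range, and the difference for the pair was -0.13 ± 0.02 (limma adjusted p = 4.20e-05). NEUROG2 and NHLH1 were at -0.12 and -0.11. Of 13 pan-neuronal genes 7 fell and none rose, beside the same 9.33%, led by the dendritic microtubule protein MAP2 at -0.14 ± 0.03 and the neuronal tubulin TUBB3 at -0.12 ± 0.03, with DCX, ELAVL4, NCAM1, NEFL and CRMP1 at -0.11 to -0.07. With the length slope as a covariate MAP2 and TUBB3 were the pan-neuronal genes still called, while the 4 neurogenic factors kept their calls. That fit called 539 of all 16318 tested genes lower. With each library centred on its median MAP2 and TUBB3 fell and STMN2 was called higher, beside 775 of all tested genes lower and 621 higher.

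The nuclear genes of the respiratory chain ran the other way. All 16 had a positive difference on days 1 to 6, and 8 were called higher, beside 2.03% of all tested genes; the median was 0.087. COX7B, a subunit of cytochrome c oxidase, had 397, 334, 377, 366 and 290 TPM under permethrin and 380, 328, 354, 333 and 324 TPM under bioallethrin, against non-toxic means of 336, 308, 279, 279 and 332 TPM. It was above the non-toxic range in 7 of 10 libraries, all but bioallethrin on day 2 and both of day 6. Those not above it had the positive length slopes of this window. The COX7B difference was 0.19 ± 0.04 (limma adjusted p = 0.000176). In each of these 10 libraries 4.42 to 14.6% of all tested genes lay above that range. NDUFA4, NDUFV2, UQCRH, UQCRB, COX7C, ATP5E and ATP5I were at 0.07 to 0.13. With the length slope as a covariate COX7B alone was called, beside 237 of all 16318 tested genes called higher. The list median was then 0.046, against -0.005 for all tested genes.

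Of 15 tested sterol synthesis genes 7 were called lower on days 1 to 6, beside 9.33% of all tested genes. All 15 had a negative difference, and the median was -0.068. SREBF2, the transcription factor that drives the pathway, was at -0.11 ± 0.02 (limma adjusted p = 4.46e-05), with HMGCS1 and IDI1 at -0.09 and -0.10 and LSS and CYP51A1 among those also called. SREBF2 had 239, 255, 268, 328 and 456 TPM under permethrin and 241, 286, 283, 321 and 379 TPM under bioallethrin, against non-toxic means of 267, 290, 325, 352 and 395 TPM, so permethrin on day 6 stood above its day's mean and the other 9 libraries below. Among heat shock chaperones HSPB1 fell by 0.23 ± 0.05, and HSPE1 and HSP90AA1 rose by 0.13 ± 0.04 and 0.07 ± 0.02. MT1G, a metallothionein, was called higher at 0.30 ± 0.09 although 7 of the 10 pyrethroid libraries had a value on the other side of their day's mean and its median was 0 TPM in both groups.

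The remaining lists on days 1 to 6 are read against 9.33% of all tested genes called lower and 2.03% called higher. SLC17A8, GRIA1, GRIA2 and GRIN2A of 12 glutamate genes, 2 of 13 GABA genes with GAD1 among them, 2 of 12 synaptic genes with DLG4 among them, and NR4A2 and LMX1B of 8 tested dopamine neuron genes fell. SLC1A3 and CD44 of 10 astrocyte markers, CDH5, CACNA1H, KCNA2 and KCNH2 fell as well. XBP1 and HSPA5 of 12 ER chaperones, 1 of 12 NRF2 targets, CCNG1 of 19 p53 targets, CDK1 of 14 mitotic genes and CTSD of 6 tested estrogen response genes fell. MCM3 of 14 S phase genes, ATF4 of 13 amino acid response genes and LUM of 12 mesenchymal genes rose. None of the 14 hypoxia, 17 HOX, 8 interferon, 6 epithelial or 6 pluripotency genes was called.

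**Figure D4:**
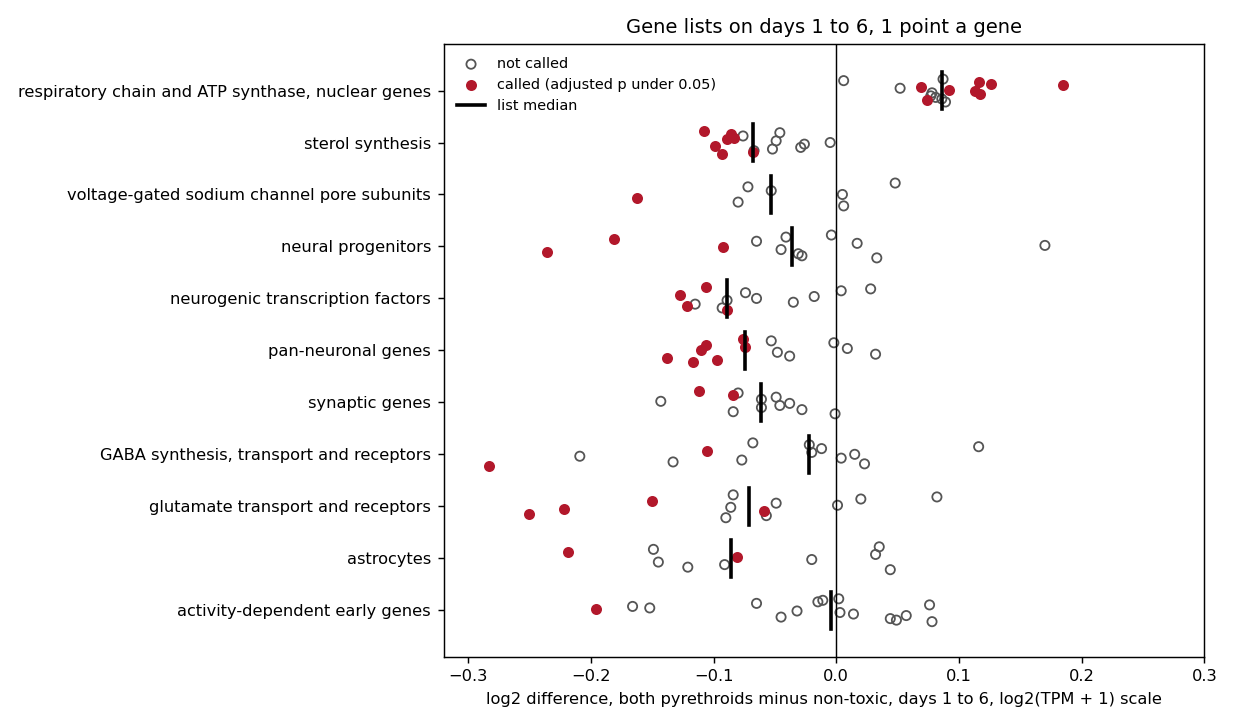
Log2 difference of both pyrethroids minus the same-day non-toxic libraries on days 1 to 6 for the tested genes of 11 lists, 1 point a gene, filled red where called and open where not, with the list median as a black bar. The respiratory chain list lies right of 0 with a median of 0.087, and the sterol list lies left of 0 with a median of -0.068.

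By the rule of size the genes with the largest differences on days 1 to 6 were mostly of low level or hard to count. UQCRHL (0.75 ± 0.25), a near copy of UQCRH, and TGIF2-C20ORF24 (-1.66 ± 0.53), PTCD1 (-0.92 ± 0.33) and MSANTD3-TMEFF1 (-0.41 ± 0.13), which overlap neighbouring genes or join them, are uncertain for that reason, as are TUBA3E (-0.60 ± 0.16), a tubulin with near copies, and SPHAR (-0.47 ± 0.12), which lies within another gene. FOXD1, a forebrain and kidney stroma transcription factor, was at 0.39 ± 0.10 with a median of 2.50 TPM in the pyrethroid libraries and 1.52 TPM in the non-toxic ones. SGK196, the protein O-mannose kinase also called POMK, was at 0.32 ± 0.08 with 7.81 to 23.5 TPM and a median of 14.9 TPM, against 6.40 to 23.7 TPM and a median of 10.4 TPM. PLAC9 and C11orf1 were at 0.51 and 0.31.

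Under permethrin, fitted apart over all days, ABCA1, which exports cholesterol from cells, had a log2 difference of -0.52 ± 0.10 (limma adjusted p = 0.00134). It ranged from 2.78 to 7.85 TPM with a median of 5.45 TPM in the 11 permethrin libraries, against 0.64 to 21.6 TPM with a median of 7.97 TPM in the non-toxic ones, and 8 permethrin libraries were below every non-toxic library of their day. In each of the 11 permethrin libraries 3.75 to 45.1% of all tested genes lay below that range. Bioallethrin had 15.7 TPM of ABCA1 on day 39 and permethrin 6.06 TPM, against a non-toxic mean of 10.3 TPM. CP, ceruloplasmin (-0.53), KIAA1199, a hyaluronan-degrading protein (-0.52), CLEC18A (-0.57) and TINAGL1 (-0.53) also fell, together with IGSF9B (-0.64) and SYN3 (-0.58). CLEC18A has near-identical copies and is uncertain.

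Higher under permethrin were PALM3, a paralemmin membrane protein, at 0.32 ± 0.07 (limma adjusted p = 0.00384), and, beside CDR1, TCEAL5 and IRGQ, NDUFV3, COX5B, PTMS and C19orf53 at 0.15 to 0.17. PALM3 ranged from 7.95 to 24.3 TPM with a median of 13.7 TPM under permethrin, against 6.03 to 26.5 TPM with a median of 9.80 TPM in the non-toxic libraries. NDUFV3 and COX5B are subunits of respiratory complexes, and PTMS, parathymosin, had a median of 1935 TPM under permethrin and 1752 TPM in the non-toxic libraries. On days 1 to 6 permethrin called SCN8A, TM6SF1 (-0.49 ± 0.10), ARHGAP9 (-0.46) and the melanin enzyme gene DCT (-0.44) lower and C1QTNF4, C4orf48, LAMC3, TPGS1 and C1orf227 higher at 0.28 to 0.68. Leaving out 1 library moved its count over all days to 29, 43 and 105 genes without days 15, 21 and 10 and to 339, 543 and 1140 without days 27, 6 and 8. Its days 1 to 6 count was 310, 606 and 320 without days 2, 3 and 4 and 2570 without day 6. By the rule that 78 genes of the pair met, 4 of the 203 permethrin genes over all days kept the call in every setting. On days 1 to 6, 110 of 982 did.

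Bioallethrin, at the much lower dose, had CDR1 (0.67), PUS3 (0.28), IRGQ (0.17), RGS5 (-0.56) and ICAM1 (-0.41) among its 8 largest changes each way. GLIPR1L2, of a family of pathogenesis-related proteins, was at 0.35 ± 0.09 and ranged from 8.66 to 19.4 TPM with a median of 14.2 TPM under bioallethrin, against 4.70 to 17.8 TPM with a median of 10.9 TPM in the non-toxic libraries. H2AFZ, a histone variant, was at 0.11 ± 0.02 (limma adjusted p = 0.0173), with TRAPPC3 and ZMAT2 at 0.14 and 0.11. KCNA3, a potassium channel of lymphocytes and microglia that neurons also carry, was at -0.44 ± 0.10, CD247, a T cell receptor chain, at -0.44 ± 0.11, and GRIN2A at -0.30 ± 0.08, lower in 11 of 11 libraries. LAMA4 (-0.28), SYTL2 (-0.29) and PLEKHA4 (-0.34) also fell. Bioallethrin called 8, 7 and 15 genes over all days without days 10, 15 and 21, and 123 without day 39. Its days 1 to 6 count was 498, 321 and 486 without days 1, 3 and 4. By the rule that 78 genes of the pair met, 0 of the 38 bioallethrin genes over all days kept the call in every setting. On days 1 to 6, 150 of 809 did.

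For bioallethrin on days 1 to 6 SGK196 (0.43), the endocytic adaptor DAB2 (0.40 ± 0.10), ADAP2 (0.37), MRPS17 (0.29) and IFT20 (0.28) rose, and TUBA3E (-0.90), PRR22, TTC23L, LOC730183 and CD247 fell, the last 4 by 0.44 to 0.48. DAB2 had 1.58 to 7.70 TPM with a median of 3.93 TPM under bioallethrin, against 0.40 to 6.67 TPM with a median of 2.04 TPM. Set side by side, GAD1 was called in both compounds on these days, at -0.30 for permethrin and -0.26 for bioallethrin, as were NOTCH1, PAX6, DLL1, NHLH1 and SCN3A. The respiratory list gave 1 call of 16 (COX7B) with a median of 0.06 for permethrin and 5 with a median of 0.13 for bioallethrin, and the sterol list gave 4 and 3 calls of 15. Over all tested genes 0.576% were called higher and 5.44% lower for permethrin, and 1.12% and 3.84% for bioallethrin. The medians of all tested genes were -0.028 and -0.013. HSPB1 and HSPE1 were called for bioallethrin, at -0.32 and 0.19, and were not called for permethrin; whether the compounds differed was not tested.

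The difference from the non-toxic libraries changed between days 1 to 6 and days 8 to 39 in 131 genes for permethrin (87 upward and 44 downward; 0.803% of those tested, 0.533% upward and 0.27% downward) and in 202 for bioallethrin (163 upward and 39 downward; 1.24%, with 0.999% upward and 0.239% downward). Without ibuprofen the split turned to 407 upward and 1038 downward for permethrin and 477 upward and 691 downward for bioallethrin, and with only the non-toxic compounds that have all 11 days it was 138 upward and 267 downward for permethrin and 186 upward and 272 downward for bioallethrin. After centring it was 233 upward and 152 downward for permethrin and 170 upward and 103 downward for bioallethrin, and with the length slope as a covariate 981 upward and 273 downward for permethrin and 876 upward and 376 downward for bioallethrin. Without libraries of a length slope under -0.15 bioallethrin gave 502 upward and 726 downward. KRT17, a keratin, changed by -1.42 ± 0.29 for permethrin (limma adjusted p = 0.00302) and -1.35 ± 0.30 for bioallethrin (adjusted p = 0.00575). On days 15, 21 and 27 permethrin gave 9.13, 10.1 and 22.1 TPM and bioallethrin 4.89, 17.2 and 18.2 TPM, against non-toxic means of 31.1, 46.7 and 50.0 TPM, and all 6 libraries were below the non-toxic range. On these days 45.1, 34.6 and 8.61% of all tested genes were below it under permethrin. Under bioallethrin 22.8, 40.3 and 8.51% were. On days 1 to 4 no group reached 2 TPM of KRT17. KRT7 changed by -1.26 ± 0.29 for permethrin and -1.10 ± 0.29 for bioallethrin, and the desmosomal protein DSP by -1.08 ± 0.18 for permethrin.

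DSP had 0.69, 1.46, 3.56 and 1.60 TPM under permethrin on days 15, 21, 27 and 39 and 1.43, 1.85, 3.97 and 1.99 TPM under bioallethrin, against non-toxic means of 4.61, 6.33, 8.88 and 3.87 TPM, all 8 below the non-toxic range. In these 8 libraries 8.51 to 45.1% of all tested genes lay below that range. On day 3 DSP was higher, at 6.03 TPM under permethrin and 5.22 TPM under bioallethrin against 1.42 to 2.95 TPM in the non-toxic libraries. Going the other way, KIAA0408 had 25.7, 44.2 and 19.03 TPM under permethrin and 29.9, 23.1 and 45.1 TPM under bioallethrin on days 10, 15 and 21, against non-toxic means of 6.52, 0.49 and 0.43 TPM. On days 15 and 21 no non-toxic library passed 1.16 TPM, and on the other days no pyrethroid library passed 1.69 TPM. The role of KIAA0408 is not known well enough to state. SPHAR (1.24 for permethrin, 1.13 for bioallethrin), MSANTD3-TMEFF1 (1.24 for permethrin) and TUBA3E (1.19 for bioallethrin) can share reads with other genes and are uncertain.

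Of 15 tested sterol synthesis genes 6 for bioallethrin (among them IDI1, MVD, LSS, DHCR7 and NSDHL) and 2 for permethrin (IDI1 and FDPS) were called upward between the windows. Of all tested genes 0.999% and 0.533% were called upward. For bioallethrin all 15 had a positive change with a median of 0.15, and for permethrin the median was 0.16. The medians of all tested genes were -0.006 for bioallethrin and -0.031 for permethrin. DHCR7, which makes cholesterol in its last step, had 115, 154, 200 and 122 TPM under permethrin and 135, 165, 192 and 125.99 TPM under bioallethrin on days 15, 21, 27 and 39, against non-toxic means of 106, 140, 157 and 110 TPM. Of these 8 values 7 exceeded the highest non-toxic library of their day, as did 9.17 to 26.7% of all tested genes in each library. Without days 15 and 21 none of the 15 was called for either compound, with a median of 0.18 for each. TUBB3 and SYP, a synaptic vesicle protein, moved upward in both compounds. Without days 15 and 21 the window contrast called 4 genes for permethrin and 8 for bioallethrin. Without day 21 alone it called 17 for permethrin and 26 for bioallethrin. Of the 131 permethrin genes 1, and of the 202 bioallethrin genes 2, kept the call in every setting and with each library left out.

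**Figure D5:**
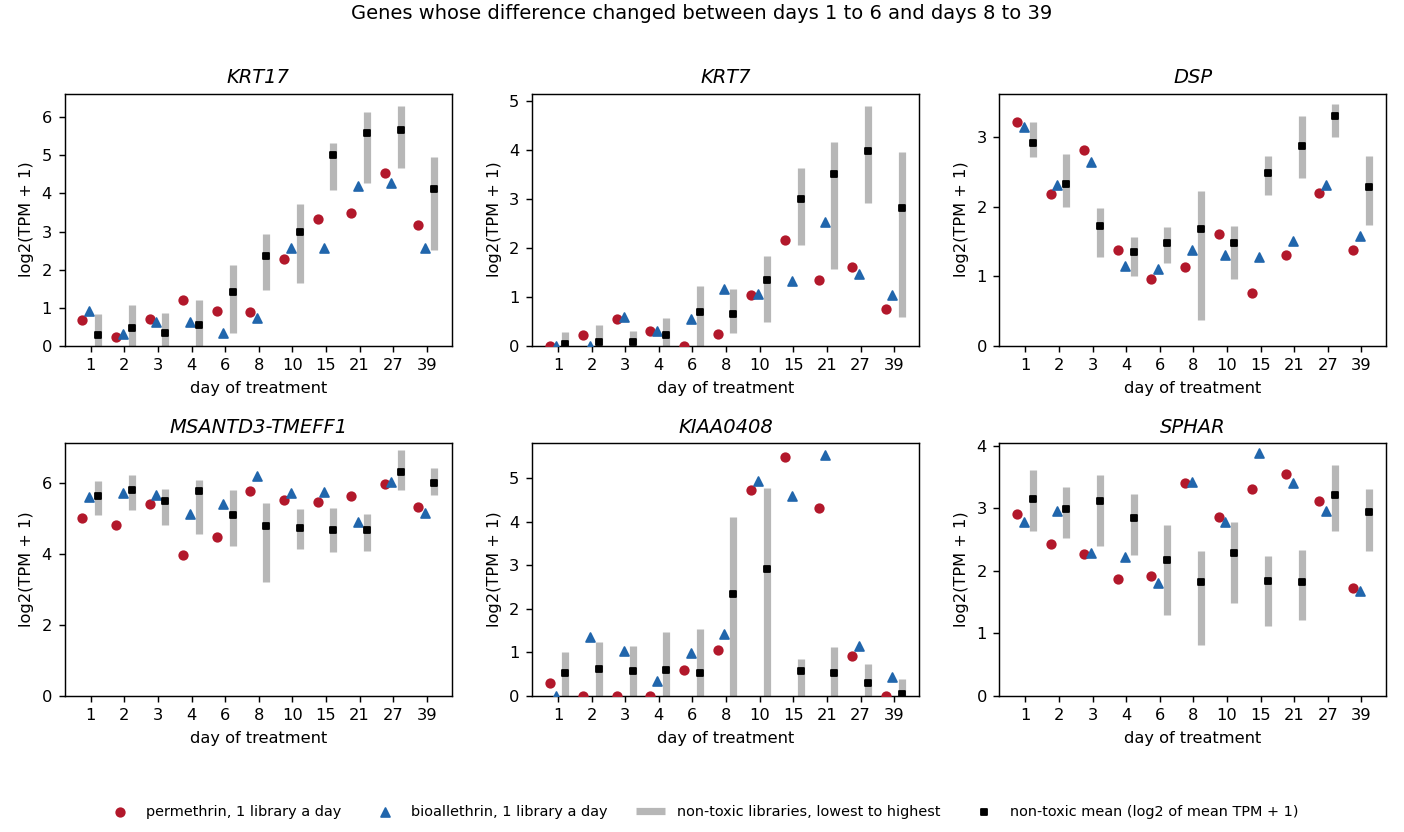
Levels of KRT17, KRT7, DSP, MSANTD3-TMEFF1, KIAA0408 and SPHAR as log2(TPM + 1) on each day of exposure, with permethrin as red circles, bioallethrin as blue triangles (1 library each), grey bars from the lowest to the highest non-toxic library and black squares at the non-toxic mean. KRT17 lies under the grey bars for both compounds on days 15, 21 and 27 and DSP on days 15 to 39, and KIAA0408 lies far over them on days 15 and 21.

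Set against the other 244 libraries classed as toxic (27 compounds), limma called 0 of 16318 genes for the pair over all days (0%) and 0 on days 1 to 6. At an unadjusted p under 0.05 there were 19 and 2 genes. That is far below the share of 0.05 that no difference at all would give, so this fit could call hardly any gene. Each compound by itself also gave 0 calls in both windows and in the window contrast, with 0 unadjusted in the windows and 89 (permethrin) and 103 (bioallethrin) in the contrast. Libraries of 1 compound correlated at 0.53 in this fit over all days, against 0.013 in the fit of the pair with the non-toxic libraries. If pyrethroid libraries share as much, the p-values against the non-toxic libraries are too small, which was not tested. A missed threshold does not show that the pair acted like the other compounds. Of the 19 other toxic compounds compared gene by gene over all days, all 19 had CDR1 on the higher side and 12 were further from the non-toxic libraries than the pair. RGS5 was on the lower side in 17 of 19 and further in 6, GAD1 in 19 and further in 11, and ICAM1 in 14 and further in 3.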

How the data were processed

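The authors deposited gene levels in TPM, made with RSEM 1.2.1 and Bowtie 0.12.8 after CASAVA 1.8.2 on hg19, per the submitters' processing notes; libraries were TruSeq RNA v2, per the labels' protocols. Read counts were not analysed here, so depth is unknown and no counting interval is given. Log2(TPM + 1) of the 16318 of 19084 genes at 1 TPM or more in at least 5 libraries was fitted with limma 3.58.1 (R 4.3.3), with day as a factor, compound as a random block, an intensity trend and Benjamini-Hochberg adjustment, called under 0.05. A pseudocount of 1 understates changes of low genes. The length slope regressed each library's deviations on transcript length (GENCODE 29) over 9613 genes.

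Genes named are the largest called changes at 1 TPM or more with the same sign in 80% of libraries, 10 each way for the pair, 8 for each compound, 5 for each days 1 to 6 comparison and 3 for each window contrast, plus called list members; some are not reported here. Members and lists were chosen with earlier results of these data known, and the comparison with other toxic compounds was added after results were seen. Scripts were tested on simulated data. Libraries of different days are the replicates, and days pair each library with the non-toxic libraries of its day through the day factor. Alternatives changed the pseudocount, filter, centring, trend, blocks, days and non-toxic compounds.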

Additional observations from a re-analysis of the deposited data

Results flagged for a closer look

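The change of the difference from the non-toxic libraries between days 1 to 6 and days 8 to 39 passed the limma test for 6 genes of permethrin and 5 of bioallethrin named here. For permethrin it was 2.26 for KIAA0408, 1.24 for MSANTD3-TMEFF1, 1.24 for SPHAR, -1.42 for KRT17, -1.26 for KRT7 and -1.08 for DSP on the log2 scale. For bioallethrin it was 1.96 for KIAA0408, 1.19 for TUBA3E, 1.13 for SPHAR, -1.35 for KRT17 and -1.10 for KRT7. KIAA0408 was at -0.34 on days 1 to 6 and 1.95 on days 8 to 39 under permethrin. With the length slope as a covariate all 131 permethrin and all 202 bioallethrin calls kept call and direction, among them every gene named here.

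SGK196 under bioallethrin on day 6 stood apart from the other 4 libraries of days 1 to 6: its deviation from the non-toxic mean was -0.066, at 16.9 TPM, against 0.468 to 0.676 in the others. The gap took 0.72 of the range, and a critical value of 0.71 is passed by chance in about 1 of 20 such groups.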

How the results depend on the processing

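Counts of called genes are given in the order pair over all days, pair on days 1 to 6, permethrin over all days and on days 1 to 6, bioallethrin over all days and on days 1 to 6, and the window contrasts of permethrin and bioallethrin; the first reading was 825, 1855, 203, 982, 38, 809, 131 and 202. Without the day factor, which stands in for a replicate block that pairs libraries by day, they were 4, 40, 2, 11, 0, 6, 0 and 1 (0 calls came with 179 and 365 genes at an unadjusted p under 0.05). Against DMSO alone they were 0, 0, 0, 0, 2, 0, 0 and 0, with 1138 to 3316 unadjusted. Centring gave 1393, 1396, 524, 621, 88, 657, 385 and 273, the length covariate 1852, 776, 805, 199, 669, 842, 1254 and 1252, and no compound block 1299, 2167, 547, 1247, 86, 1058, 117 and 186. Non-toxic compounds with all 11 days gave 2642, 457, 2131, 209, 513, 230, 405 and 458, and leaving out ibuprofen 4412, 3973, 1418, 1445 and 1168 for the all-day and window comparisons, with the days 1 to 6 counts within 1.5 times. Leaving out libraries with a length slope under -0.15 gave 3256, 1855, 1390, 982, 1396, 809, 266 and 1228, and a pseudocount of 0.1 gave 528, 1856, 136, 997, 25, 829, 96 and 180. Without days 15 and 21 the all-day and window counts were 156, 6, 7, 4 and 8. Leaving out 1 library gave 363 to 1449, 1210 to 2819, 29 to 1140, 310 to 2570, 7 to 123, 321 to 1054, 17 to 385 and 26 to 422. Of the 825 genes, 669 kept call and direction after centring, 531 with the length covariate and 115 without days 15 and 21. Against DMSO alone PRPH (0.12) and S100B (0.032) changed side over all days, as did SCN4B (0.014), NEFL (0.013) and GRIA1 (0.013) on days 1 to 6, and without the day factor CACNA1E (0.052) and SPARCL1 (0.13) did. The cause of these moves was not tested.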

Other observations

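Among the 78 genes called for the pair over all days that kept the call in every one of 11 settings in which they were tested and with each library left out, 39 were higher. The genes named here were chosen after their values were seen. EIF4A1, a translation initiation helicase, was at 0.08 (limma adjusted p = 2.58e-05) and above every same-day non-toxic library in 15 of 22 libraries. NPM1, the nucleolar protein nucleophosmin, was at 0.07 and above in 11 of 22, beside a mean over all genes of 2.33 of 22. The median over all days was 968 TPM against 990 TPM in the non-toxic libraries for EIF4A1, and 746 against 827 TPM for NPM1. The splicing and RNA-binding proteins TAF15 and SRSF3 were at 0.10 each, PPM1G at 0.09 and the histone H2AFZ at 0.11.

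Of the lower genes of the 78, VCAM1, an adhesion molecule, was at -0.28 (limma adjusted p = 0.000446) with 5.54 to 57.7 TPM in the pyrethroid libraries and 3.56 to 108 TPM in the non-toxic ones. IL33, a cytokine, was at -0.29, the cyclin inhibitor CDKN2B at -0.37 and cyclin D1 (CCND1) at -0.28. SYT2, a vesicle calcium sensor, at -0.16, and AGRN, the synapse-organising protein agrin, at -0.15, each lay below all same-day non-toxic libraries in 14 of 22. The mean over all genes was 3.63 of 22.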
